A study of Mus musculus with 4 samples.

Results

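The 10 genes described here move chloride, bicarbonate, sodium, sulfate and water across the colonic epithelium, or supply the bicarbonate and protons for that movement. They were taken as the rows listed under the symbols *Slc26a3*, *Slc26a2*, *Slc9a3*, *Slc9a2*, *Car1*, *Car2*, *Car4*, *Aqp8*, *Cftr* and *Slc12a2*, and all 10 were found among the 16015 genes listed. Bulk RNA sequencing of colonic epithelial cells was available for 2 control mice, labelled WT and *Bmal1* fl/fl by the study's methods, and 2 mice labelled *Bmal1* cKO, which were *Villin-CreERT2* on *Bmal1* fl/fl. The *Villin* promoter limits the tamoxifen-inducible Cre to the intestinal epithelium, and tamoxifen was injected on 5 days to delete the clock gene *Bmal1* there. Whether the control mice also received tamoxifen was not given in the sources used here. All 4 mice drank 3% dextran sulfate sodium (DSS), a polysaccharide that injures the colonic epithelium, over 5 days, returned to plain water over the next 2 days and gave cells on day 7. The mice were 2 to 4 months old, on a C57BL/6 background. The comparison asks how the transport genes differed between epithelium with the *Bmal1* deletion and control epithelium after this injury.

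The colon absorbs salt and water at its surface and secretes chloride and fluid mainly from its crypts. Absorption couples an apical sodium-hydrogen exchanger to an apical chloride-bicarbonate exchanger, with carbonic anhydrases supplying the protons and bicarbonate from carbon dioxide. Secretion needs a basolateral cotransporter that loads chloride into the cell and an apical anion channel through which it leaves, and water follows the salt. Loss of *Slc26a3* is known to cause chloride-losing diarrhoea, and several of the absorptive genes are known to fall in colitis.

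Between 10312791 and 14156639 reads per library fell on the listed genes, and the spread within each group exceeded sampling noise (chi-square 40.9 per gene for the control pair, 10.1 for the cKO-labelled pair). *Arntl*, the listed symbol of the deleted gene *Bmal1*, had 358 and 342 normalized counts in the control libraries against 341 and 289 in the cKO-labelled libraries (log2 fold change -0.16, SE 0.14, adjusted p = 0.389 from limma). Here a normalized count means reads per gene after division by a size factor, which evens out the depth of the libraries. The values are sums over whole genes, so a deletion of single exons need not lower them, and every direction below compares cKO-labelled with control libraries, as their labels put them. All 12 epithelial markers were present, with summed levels from 125775 to 150150 normalized counts over the 4 libraries. Of these, 1 was called higher and 5 lower as deposited, and 5 higher and 0 lower after the correction for GC content described below, so no direction is read from this list. The markers of other cells were much higher in the control libraries. The 19 leukocyte markers summed to 21217 and 22924 in the control libraries against 1701 and 2063 in the cKO-labelled libraries (15 fell, 0 rose), the 16 markers of stroma, muscle and vessel to 16823 and 4049.7 against 549 and 616 (14 fell, 0 rose), and the red cell markers to 1352 and 2040 against 21.6 and 24.3 (5 of 5 tested fell). The red cell globin *Hba-a2* was at 0 reads in both cKO-labelled libraries. After the same correction 14 leukocyte, 12 stromal and 5 red cell markers were called lower. The labels name 1 library kit for all 4 libraries, which is not the kit in the study's methods, and whether the mice of both groups were dissected and their RNA prepared together was not given in the sources used here, so such a difference in handling and the genotype cannot be told apart. In bulk samples, fewer cells of a type and less RNA per cell cannot be told apart.

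Promoter sequence is given for genes whose values are described below, since BMAL1 with its partner CLOCK binds the E-box CACGTG. RefSeq starts on GRCm38.p6 were matched for 5 of the 10 genes, and the 250 bases before each start were searched on both strands for the E-box, for AGGTCA, the half-site bound by the nuclear receptors of the clock and by others, and for the D-box TTATGTAA. These motifs do not overlap one another in letters. Capitals mark the E-box in *Aqp8* and *Slc9a3* and the half-site in *Slc26a3*, and *Car4*, the gene that fell most among the 10, is shown as a window that held none of them.
Aqp8, plus strand, chr7:123462044-123462293: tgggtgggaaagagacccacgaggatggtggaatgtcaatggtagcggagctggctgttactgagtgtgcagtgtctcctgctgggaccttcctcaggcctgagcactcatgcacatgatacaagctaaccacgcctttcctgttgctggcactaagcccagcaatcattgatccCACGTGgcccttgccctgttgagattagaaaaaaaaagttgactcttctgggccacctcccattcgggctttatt
Slc9a3, plus strand, chr13:74121163-74121412: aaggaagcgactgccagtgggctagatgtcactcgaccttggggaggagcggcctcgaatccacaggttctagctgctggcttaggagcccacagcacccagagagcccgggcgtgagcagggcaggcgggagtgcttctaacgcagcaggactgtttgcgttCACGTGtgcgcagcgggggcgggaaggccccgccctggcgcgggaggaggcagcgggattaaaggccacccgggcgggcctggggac
Slc26a3, plus strand, chr12:31437969-31438218: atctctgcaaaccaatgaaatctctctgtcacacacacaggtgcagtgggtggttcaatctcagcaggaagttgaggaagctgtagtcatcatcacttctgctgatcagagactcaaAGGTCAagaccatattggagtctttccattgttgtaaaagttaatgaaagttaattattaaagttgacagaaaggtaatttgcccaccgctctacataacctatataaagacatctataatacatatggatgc
Car4, plus strand, chr11:84957504-84957753: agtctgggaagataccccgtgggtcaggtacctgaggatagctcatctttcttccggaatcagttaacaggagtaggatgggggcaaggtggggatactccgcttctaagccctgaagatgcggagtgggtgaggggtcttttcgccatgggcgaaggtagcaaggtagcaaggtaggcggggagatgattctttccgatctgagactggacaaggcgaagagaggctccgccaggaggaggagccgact

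The E-box of *Aqp8* began 75 bases before the RefSeq start and that of *Slc9a3* 87 bases before it. The half-site of *Slc26a3* began 133 bases before its start, which lies inside the span of the gene in the GENCODE annotation. No D-box was found in the 5 windows, and *Cftr*, whose window had 76.4% GC against 38.8% in that of *Slc26a3*, held none of the 3 motifs. Over the 27025 genes with such windows outside chromosome 18, 6.86% held the E-box, 15.8% the half-site and 0.977% the D-box. A match is a description of letters and not a binding site. The 2 genes with the E-box, *Aqp8* and *Slc9a3*, are among those that did not pass the test below.

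Of the 10 transport genes, 3 rose and 1 fell. *Slc26a3*, *Cftr* and *Slc12a2* were 3.08-fold to 4.38-fold higher in the cKO-labelled libraries, *Car4* was 3.93-fold lower, and the other 6 did not pass the test (limma on log2(normalized count + 1), adjusted p under 0.05 over 13983 genes). In this comparison 29.0% of all tested genes were called higher and 27.7% lower. The median log2 fold change of the 10 genes was -0.05, against -0.04 over all tested genes. All 10 passed the minimum mean normalized count of 10 by a wide margin, since the lowest of their library values was 1079.

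**Figure D1:**
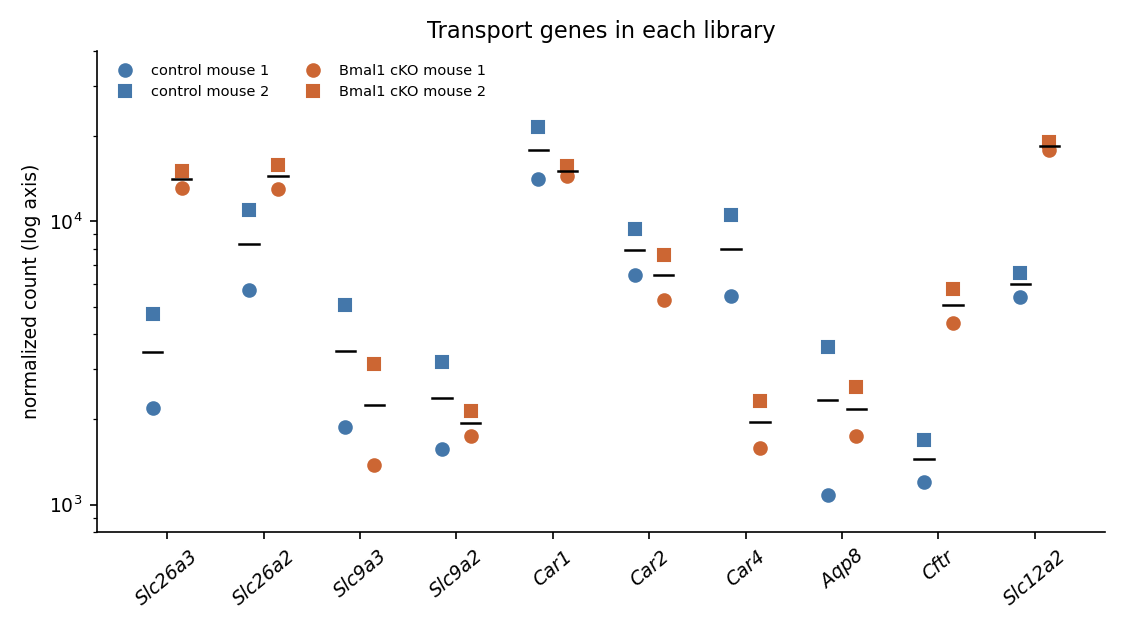
Normalized count (log axis) of each transport gene in each library, with control mice in blue, cKO-labelled mice in orange, mouse 1 as circles, mouse 2 as squares and black lines at the means. The groups stand apart for *Slc26a3*, *Slc26a2*, *Cftr* and *Slc12a2* upward and for *Car4* downward, and overlap for the other 5 genes.

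The chloride-bicarbonate exchanger *Slc26a3* (chromosome 12, 31390871 to 31473917, plus strand, GRCm38), which takes up luminal chloride at the surface of the colon, had 2199.9 and 4707 normalized counts in control mice 1 and 2 and 13157 and 15104 in cKO-labelled mice 1 and 2. Both cKO-labelled libraries were above both control libraries, and control mouse 1 had the lowest value. The means were 3453 ± 1773 and 14130.2 ± 1377 (SD, n = 2 each), with a log2 fold change of 2.13 (SE 0.35, adjusted p = 0.00486 from limma) or 4.38-fold, with a 95% interval from 2.38-fold to 8.07-fold. Without cKO-labelled mouse 1 or mouse 2 the adjusted p was 0.0548 or 0.0657, with log2 fold changes of 2.23 and 2.03. The summed level of 11 surface colonocyte markers was 156798 and 209861 in the control libraries and 194380 and 190253 in the cKO-labelled libraries, and overlapped, but its members went both ways, with 2 that rose and 3 that fell (1 and 1 after the correction), and 3 whose groups stood apart upward and 8 downward. The part of surface cells in the result was not tested.

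The sulfate transporter *Slc26a2* (chromosome 18, 61192919 to 61211612, minus strand), of the same exchanger family, had 5702 and 10986 normalized counts in the control libraries and 12969 and 15835 in the cKO-labelled libraries. The groups did not overlap, but the log2 fold change of 0.86 (SE 0.32, adjusted p = 0.0657) did not pass the test. Its 95% interval ran from 0.06 to 1.65 on the log2 scale. The value was 0.38 without control mouse 1 (adjusted p = 0.1796) and 1.33 without control mouse 2 (adjusted p = 0.0180), and it also passed when libraries were scaled by epithelium markers (0.99, adjusted p = 0.00901). Within each library, the ratio of *Slc26a3* to *Slc26a2*, which does not depend on the size factor, was 0.386 and 0.428 in the control libraries and 1.01 and 0.954 in the cKO-labelled libraries. The ratios stood apart between the groups, and the control mice, which differed 2.14-fold in *Slc26a3* and 1.93-fold in *Slc26a2*, were close in this ratio. With 2 against 2 libraries the smallest p of an exact permutation test is 0.333, so ratios are given with no test.

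The apical sodium-hydrogen exchanger *Slc9a3* (chromosome 13, 74121457 to 74169442, plus strand), the partner of *Slc26a3* in salt absorption, had 1881 and 5079.7 normalized counts in the control libraries and 1382 and 3128 in the cKO-labelled libraries. The groups overlapped, and mouse 2 was the higher of the pair in both. Its log2 fold change was -0.57 (SE 0.57, 95% interval -2.002 to 0.86, adjusted p = 0.420), so the interval takes in large changes in both directions. It was -1.29 without control mouse 1 and -1.16 without cKO-labelled mouse 2, but 0.14 without control mouse 2 and 0.02 without cKO-labelled mouse 1, and passed in none of these fits. The related exchanger *Slc9a2* (chromosome 1, 40680574 to 40769273, plus strand) had 1571 and 3187 normalized counts against 1754 and 2137. Both cKO-labelled values lay between the control values, and the log2 fold change was -0.21 (SE 0.33, 95% interval -1.04 to 0.63, adjusted p = 0.612). Without control mouse 1 *Slc9a2* passed the test (log2 fold change -0.72, adjusted p = 0.0462), whereas without control mouse 2 its value was 0.30. The ratio of *Slc9a3* to *Slc9a2* was 1.197 and 1.59 in the control libraries and 0.788 and 1.46 in the cKO-labelled libraries and overlapped between the groups.

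Carbonic anhydrases interconvert carbon dioxide and bicarbonate. *Car4* (chromosome 11, 84957786 to 84966044, plus strand), an enzyme anchored on the luminal membrane, had 5432 and 10492 normalized counts in the control libraries and 1585 and 2328 in the cKO-labelled libraries. Both cKO-labelled libraries lay below both control libraries. The means were 7962 ± 3578 and 1956 ± 525 (SD, n = 2 each), with a log2 fold change of -1.97 (SE 0.34, 95% interval -2.84 to -1.11, adjusted p = 0.00595 from limma), or 3.93-fold lower. Without cKO-labelled mouse 1 it was -1.70 with an adjusted p of 0.0701. *Car4* moved the opposite way to *Slc26a3*, another surface gene, in the same libraries.

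*Car1* and *Car2*, the cytosolic enzymes, are neighbours on chromosome 3, at 14766216 to 14808368 on the minus strand and 14886273 to 14900770 on the plus strand, 77904 bases apart. *Car1* had 14059 and 21557 normalized counts in the control libraries and 14494 and 15692 in the cKO-labelled libraries (log2 fold change -0.21, SE 0.22, 95% interval -0.77 to 0.35, adjusted p = 0.455). *Car2* had 6469.7 and 9418 against 5283 and 7603 (-0.30, SE 0.25, 95% interval -0.92 to 0.32, adjusted p = 0.335). Control and cKO-labelled values overlapped for both genes. With a mouse left out *Car1* lay between -0.52 and 0.10, and *Car2* was -0.57 without control mouse 1 and -0.56 without cKO-labelled mouse 2 but -0.03 without control mouse 2 and -0.04 without cKO-labelled mouse 1. Red cells are known to carry both enzymes, and the red cell markers given above fell to near 0 in the cKO-labelled libraries, in which *Car1* and *Car2* stayed within or near the range of the control values. The part of red cells in these values was not tested. The ratio of *Car1* to *Car2* was 2.17 and 2.29 in the control libraries and 2.74 and 2.06 in the cKO-labelled libraries and overlapped, whereas that of *Car4* to *Car2* was 0.840 and 1.11 against 0.30004 and 0.306 and stood apart.

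The water channel *Aqp8* (chromosome 7, 123462291 to 123468004, plus strand), found in the surface epithelium of the colon, had 1079 and 3606 normalized counts in the control libraries and 1751 and 2610.1 in the cKO-labelled libraries. Both cKO-labelled values lay between the control values, which differed 3.34-fold from each other. The log2 fold change was 0.12 (SE 0.56, 95% interval -1.30 to 1.53, adjusted p = 0.870). It was -0.75 without control mouse 1, 0.99 without control mouse 2 and -0.17 without cKO-labelled mouse 2, and its direction also turned with the scaling and the count tests, so no direction is read from it.

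*Cftr* (chromosome 6, 18170687 to 18322768, plus strand), the apical anion channel opened by cyclic AMP and lost in cystic fibrosis, had 1204 and 1693 normalized counts in the control libraries and 4365 and 5759.5 in the cKO-labelled libraries. The lowest cKO-labelled value was above the highest control value. The log2 fold change was 1.81 (SE 0.21, adjusted p = 0.00157 from limma) or 3.51-fold, with a 95% interval from 2.44-fold to 5.06-fold. *Cftr* shares 129 exonic bases with the antisense gene *Gm15592*, which had a mean of 14.9 normalized counts, and whether the counting used strand was not given in the sources used here. The ratio of *Slc26a3* to *Cftr* was 1.83 and 2.78 in the control libraries and 3.01 and 2.62 in the cKO-labelled libraries and overlapped between the groups.

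*Slc12a2* (chromosome 18, 57878678 to 57946821, plus strand), the basolateral sodium-potassium-chloride cotransporter that loads chloride for secretion, had 5411 and 6593 normalized counts in the control libraries and 17789.6 and 19013 in the cKO-labelled libraries. The mice of each group were close to each other, and the groups were far apart. The means were 6002 ± 836 and 18401 ± 865 (SD, n = 2 each), with a log2 fold change of 1.62 (SE 0.14, adjusted p = 7.06e-04 from limma) or 3.08-fold, the smallest standard error among the 10 genes. *Slc12a2* is known from the crypt. The 12 markers of crypt base and cycling cells summed to 18362 and 19551 normalized counts in the control libraries against 25631 and 23358 in the cKO-labelled libraries. Of these markers, 4 rose and 2 fell, and 2 and 2 after the correction. Among them *Top2a* had 4981 and 4653 against 9722 and 8528, a call lost after the correction. By contrast, *Mki67* had 5929 and 6089 against 6573 and 5562. The part of crypt cells in the result was not tested. The ratio of *Slc9a3* to *Slc12a2* was 0.348 and 0.770 in the control libraries and 0.0777 and 0.165 in the cKO-labelled libraries, and that of *Aqp8* to *Slc12a2* was 0.199 and 0.547 against 0.0984 and 0.137, both lower with the groups apart. As a log2 difference between the groups, the first went from -2.19 as deposited to -1.45 after the correction, and the second from -1.51 to -0.48 and, with a mouse left out, to between -2.23 and -0.78. The ratio of *Slc26a3* to *Slc12a2*, added after the values were seen, went the other way, at 0.407 and 0.714 against 0.740 and 0.794, also with the groups apart. Its values in control mouse 2 and cKO-labelled mouse 1, 0.714 and 0.740, were close to each other. Neither the correction nor leaving out a mouse was applied to this ratio. No common direction of the absorptive genes against this cotransporter is read from these ratios.

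**Figure D2:**
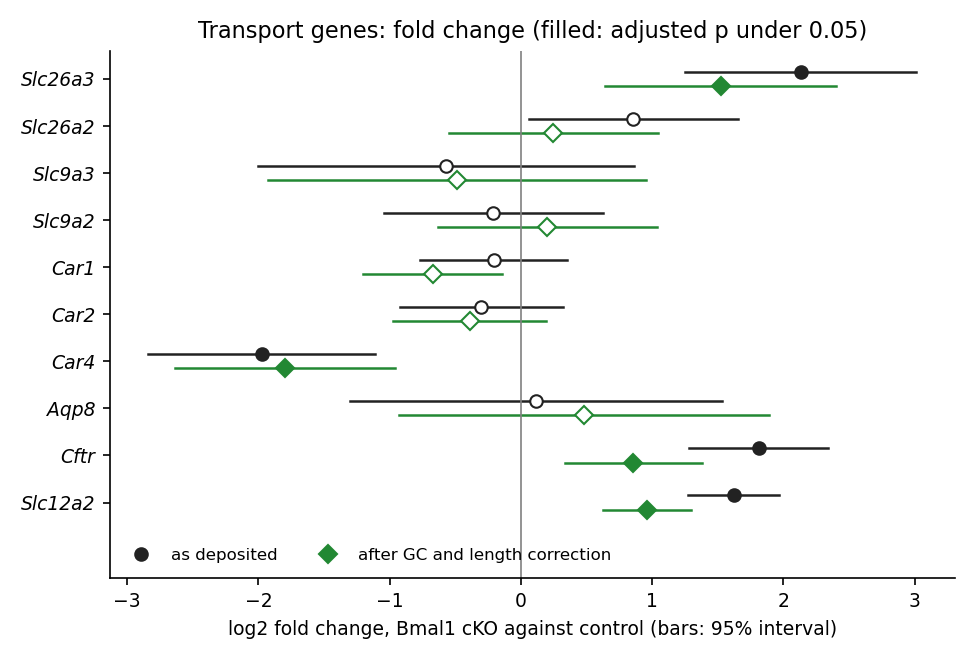
Log2 fold change of each transport gene, cKO-labelled against control libraries, with 95% intervals (limma, 2 mice per group), as deposited (black circles) and after a correction for GC content and length (green diamonds), filled where the adjusted p was under 0.05. The same 4 genes are filled in both, and *Cftr* and *Slc12a2* move toward 0 after the correction.

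Groups that did not overlap were found for 4 genes upward and 1 downward, where 40.3% of all tested genes had both cKO-labelled libraries above both control libraries and 41.7% had both below. The upward shares of the 10 genes were near these backgrounds and the downward shares below them, so nothing is read from the counts alone. Another pattern, noticed after the values were seen, was that mouse 2 was above mouse 1 in both groups for 10 of the 10 genes, which held for 24.0% of all tested genes. The ratio of mouse 2 to mouse 1 ran from 1.22 (*Slc12a2*) to 3.34 (*Aqp8*) in the control mice and from 1.07 (*Slc12a2*) to 2.26 (*Slc9a3*) in the cKO-labelled mice. The 10 genes together took 0.386% and 0.645% of the reads of the control libraries and 0.544% and 0.640% of those of the cKO-labelled libraries. The summed markers of epithelium, leukocytes, red cells, goblet and deep crypt secretory cells, and enteroendocrine and tuft cells shared this order. The summed stromal markers given above were higher in mouse 1 of the control pair and in mouse 2 of the cKO-labelled pair. Those of surface colonocytes, crypt base and cycling cells, enteric neurons and glia, and posterior Hox genes shared this order in the control pair only. The part of cell make-up in this order was not tested.

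**Figure D3:**
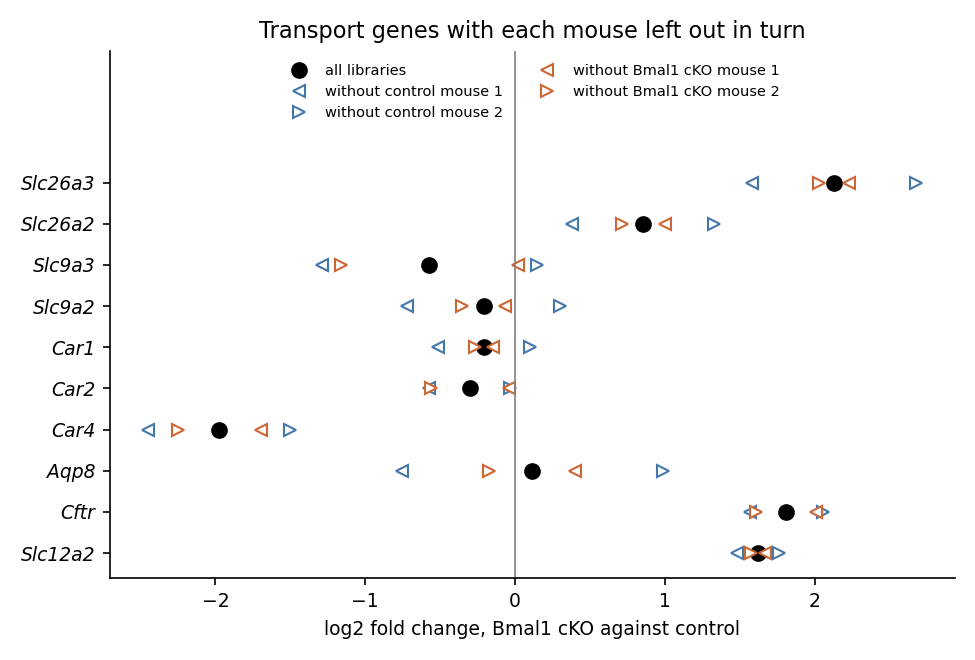
Log2 fold change of each transport gene with all 4 libraries (black) and with single mice left out (open triangles, blue for a control mouse and orange for a cKO-labelled mouse). *Slc26a3*, *Slc26a2*, *Car4*, *Cftr* and *Slc12a2* stay on one side of 0, as does *Car2*, while *Slc9a3*, *Slc9a2*, *Car1* and *Aqp8* cross it.

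With one mouse left out the log2 fold change of *Slc26a3* lay between 1.58 and 2.68 and that of *Car4* between -2.45 and -1.50, whereas *Slc12a2* stayed between 1.48 and 1.76 and *Cftr* between 1.57 and 2.06. In these fits the remaining mouse of a group was assumed to vary like the other group. *Cftr* and *Slc12a2* passed the test under 18 of 18 alternative settings, *Car4* under 17 and *Slc26a3* under 16. *Car1*, *Car2* and *Aqp8* passed under 0 of 18.

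The fold changes of all genes followed the GC content of their longest transcripts (Spearman's rho -0.61 across 13975 genes, which are not independent replicates and share the 4 libraries). Genes were split by GC content into 10 classes of equal size, and the median log2 fold change ran from 1.13 in the class of lowest GC content to -1.35 in the highest. The transport genes that rose were on the low side of GC content, with 41.2% for *Cftr*, 44.2% for *Slc12a2* and 44.7% for *Slc26a3*, while *Car4* had 51.3%. Against the median of its own class, *Slc26a3* was higher by 1.56 on the log2 scale, *Slc12a2* by 1.05 and *Cftr* by 1.02. *Slc26a2*, with 44.7% GC, was 0.29 above its class median of 0.57. *Car1*, at 44.8% GC in the same class, differed from that median by -0.78.

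**Figure D4:**
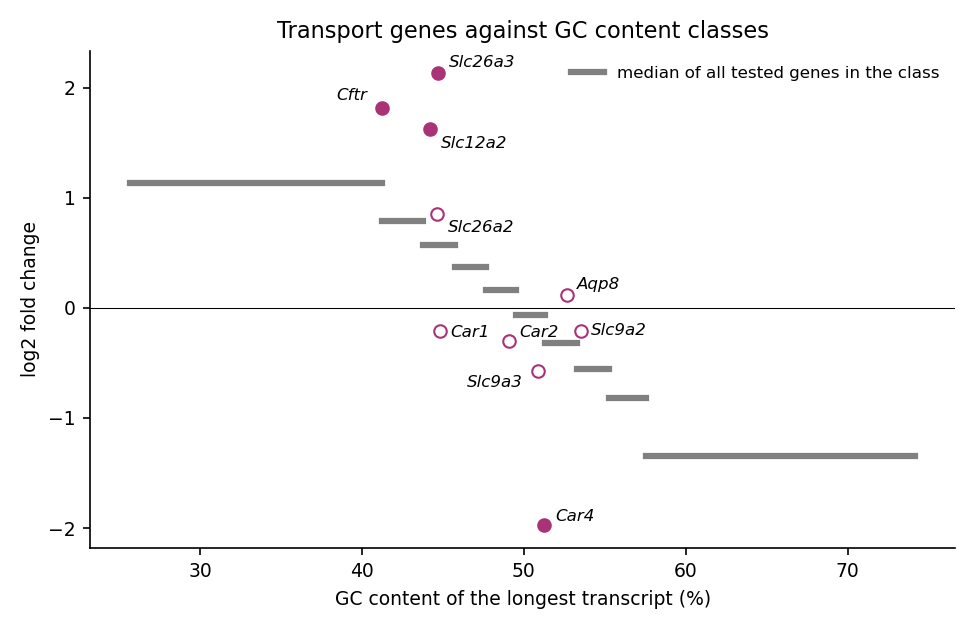
Log2 fold change of the transport genes (points, filled where the adjusted p was under 0.05) against the GC content of the longest transcript, with the median of all tested genes in each of 10 GC content classes as grey bars. *Slc26a3*, *Cftr* and *Slc12a2* lie above the bars of their classes and *Car4* lies below its bar at -0.06.

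After each library was corrected by loess for GC content and length, the same 3 genes were higher and *Car4* was lower, where 18.4% of 13975 genes were called higher and 17.6% lower. The log2 fold change of *Slc26a3* was then 1.52 (adjusted p = 0.0250), that of *Slc12a2* 0.96 (adjusted p = 0.00740), that of *Cftr* 0.86 (adjusted p = 0.0289) and that of *Car4* -1.80 (adjusted p = 0.0143). In linear terms *Cftr* went from 3.51-fold to 1.81-fold and *Slc12a2* from 3.08-fold to 1.95-fold. *Slc26a2* fell to 0.25 by the same correction (adjusted p = 0.566), and *Car1* came to -0.67 (adjusted p = 0.0574). *Slc9a2* changed sign, from -0.21 to 0.20, and passed the test in neither. The part of GC content in these differences and that of the genotype cannot be told apart with these groups.

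Levels were compared between genes as normalized counts per kilobase of exon, over the union of annotated exons. In the control libraries *Car1* was the most abundant at 14269 ± 4249 per kilobase (SD, n = 2), followed by *Car4* at 4050.0 ± 1820 and *Car2* at 3280 ± 861, whose values overlapped. *Aqp8* came next at 1482 ± 1130, and *Slc26a2*, *Slc9a3*, *Slc12a2* and *Slc26a3*, with means from 542 to 675, overlapped with their neighbours in that order. *Slc9a2* at 341 ± 164 lay above *Cftr* at 187 ± 44.6 in both mice.

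In the cKO-labelled libraries *Car1* was again first at 12094 ± 679 per kilobase, and *Car2* was next at 2660.2 ± 677. *Slc26a3* followed at 2219 ± 216, overlapping with *Car2*, and then *Slc12a2* at 1685 ± 79.2, below *Slc26a3* in both mice. *Aqp8*, *Slc26a2* and *Car4* followed with means of 1379, 1164 and 995 and overlapped in that order. *Cftr* came after them at 652 ± 127, below *Car4* in both mice and overlapping with *Slc9a3* at 410 ± 224, and *Slc9a2* was last at 279 ± 38.8. *Car4* was thus at rank 2 in the control and rank 7 in the cKO-labelled libraries, and *Slc26a3* at rank 8 and rank 3. With coding length or the longest transcript in place of all exons, *Car1* stayed first in both groups and *Cftr* last in the control libraries, and other places shifted.

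The wider pathway was read from 7 lists with 109 other genes, of which 82 were tested. Of these, 22 rose and 19 fell, and once GC content and length were corrected for, 25 were higher and 8 lower. Scaled by library totals instead, 18 were higher and 27 lower, where 3091 of all tested genes were higher and 4885 lower, so the balance of directions rests on the scaling. As shares, 26.8% rose and 23.2% fell, against the 29.0% and 27.7% of all tested genes, and 30.5% and 9.76% after the correction, against 18.4% and 17.6%. Their median log2 fold change was -0.10, against -0.04 over all tested genes. The number that fell was 12 without control mouse 2, 10 without cKO-labelled mouse 1 and 11 without cKO-labelled mouse 2.

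**Figure D5:**
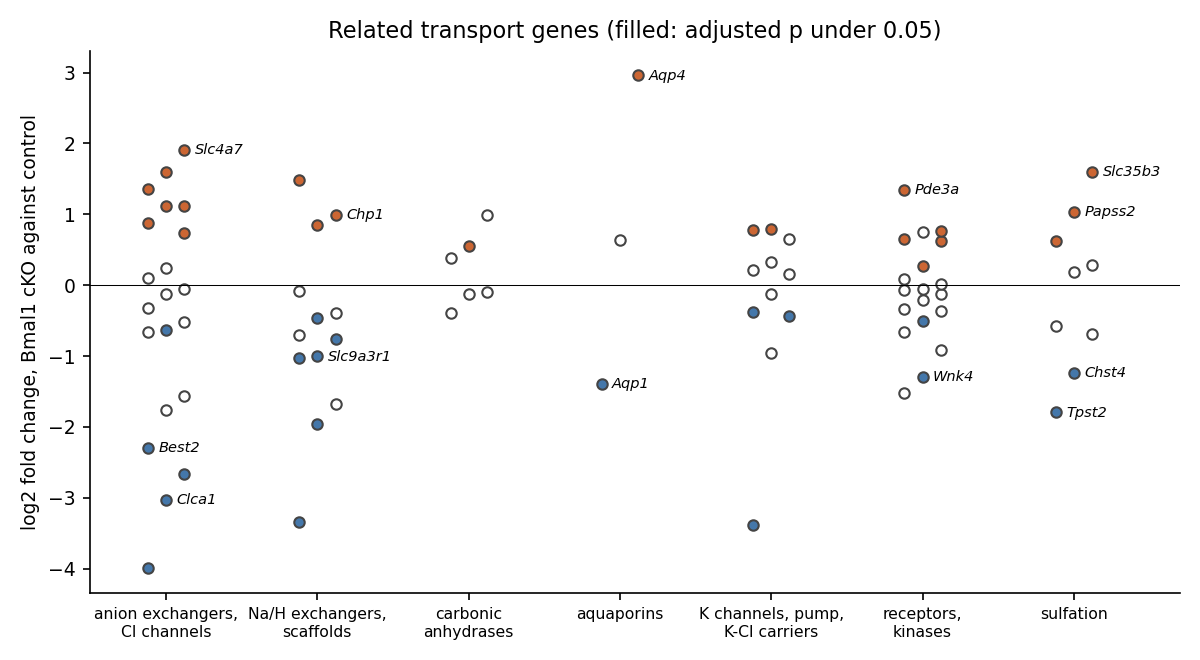
Log2 fold change of the 82 tested related transport genes in 7 lists, with filled points where the adjusted p was under 0.05 (orange higher, blue lower in the cKO-labelled libraries) and labels on named genes beyond 0.9 in size. *Aqp4* is the highest point and *Slc4a7* leads the anion transport list.

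Among 21 tested anion exchangers, bicarbonate cotransporters and chloride channels, 7 rose and 5 fell (7 and 3 after the correction). The sodium-bicarbonate cotransporter *Slc4a7*, which imports bicarbonate at the basolateral membrane, rose from 2586 and 2677 normalized counts to 9736 and 9958 (log2 fold change 1.90, SE 0.09, adjusted p = 5.33e-04), and was 1.01 higher after the correction (adjusted p = 0.00334). Its groups were far apart and its mice close together, as for *Slc12a2*. *Clca1*, a secreted goblet cell protein that regulates chloride channels, fell from 51677 and 129047 normalized counts to 7505 and 13309 (-3.03, SE 0.49, adjusted p = 0.00469), and its adjusted p was 0.0724 without cKO-labelled mouse 1. It lay between -3.69 without control mouse 1 and -2.37 without control mouse 2. *Best2*, an anion channel of goblet cells, fell by 2.30 on the log2 scale (adjusted p = 0.00848), a call lost after the correction, without control mouse 2 (adjusted p = 0.0676) and without cKO-labelled mouse 1 (0.0682). The 11 markers of goblet and deep crypt secretory cells, among them *Clca1* and *Best2*, summed to 241034 and 488544 in the control libraries and 75113 and 106767 in the cKO-labelled libraries (7 fell, 0 rose, and 4 and 0 after the correction). The part of these cells in the 2 results was not tested. *Clca4b*, of the same family as *Clca1*, rose by 0.74 (adjusted p = 0.0452) and was at 0.08 after the correction, and it passed under 9 of 18 settings, losing the call without control mouse 2, cKO-labelled mouse 1 or cKO-labelled mouse 2 (adjusted p = 0.189, 0.279 and 0.133).

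Of 13 tested sodium-hydrogen exchangers and scaffolds of the apical exchanger, 3 rose and 6 fell (3 and 2 after the correction). *Slc9a3r1*, the scaffold that holds *Slc9a3* at the apical membrane, fell from 1955 and 3357 normalized counts to 1258 and 1294 (log2 fold change -1.01, adjusted p = 0.0199), but was at 0.12 after the correction, and its adjusted p was 0.132 without cKO-labelled mouse 1 and 0.124 without cKO-labelled mouse 2. *Ezr*, which ties that scaffold to actin, fell by 0.77 on the log2 scale (adjusted p = 0.00907) and did not pass after the correction (-0.42, adjusted p = 0.0742), nor without cKO-labelled mouse 1 (0.0853) or cKO-labelled mouse 2 (0.0843). *Chp1*, a calcium-binding cofactor of these exchangers, rose by 0.99 (adjusted p = 0.00355) and was at 0.53 after the correction (adjusted p = 0.0356), with an adjusted p of 0.0511 without cKO-labelled mouse 2.

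Of the other carbonic anhydrases 6 were tested, 1 rose and 0 fell. Cytosolic *Car13* had 551 and 551 normalized counts in the control libraries and 824 and 799 in the cKO-labelled libraries (log2 fold change 0.56, adjusted p = 0.00599), and its sign turned to -0.25 after the correction. The membrane-bound enzymes *Car9* and *Car12* did not pass the test (-0.12 and -0.09, adjusted p = 0.676 and 0.734). None of these 6 was called lower, as deposited or after the correction, where 27.7% and 17.6% of all tested genes were. Nothing is read from that count.

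Of 3 other aquaporins tested, 1 rose, 1 fell and 1 did not pass. *Aqp4*, a basolateral water channel, rose from 5400.1 and 4249.6 normalized counts to 30220.2 and 45969 (log2 fold change 2.96, SE 0.24, adjusted p = 6.56e-04), or 7.78-fold, and was still 2.03 higher after the correction (adjusted p = 0.00476). *Aqp1*, known from vessels, had 352 and 368 normalized counts against 102 and 181 (-1.40, adjusted p = 0.0108), a call lost after the correction. Its value was -1.43 without control mouse 1 and -1.37 without control mouse 2. The stromal and vessel markers given above moved the same way. Their part in the result was not tested. *Aqp11*, an intracellular channel, did not pass (0.64, adjusted p = 0.1498).

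Potassium channels and the sodium-potassium pump keep the voltage and sodium gradient that drive both absorption and secretion. Of 11 tested genes of this list, 2 rose and 3 fell (3 and 2 after the correction). The pump's beta subunit *Atp1b1* rose by 0.79 on the log2 scale (adjusted p = 0.0134), from 12217 and 16321 normalized counts in the control libraries to 24779.9 and 24194 in the cKO-labelled libraries, and passed after the correction as well (0.74, adjusted p = 0.0253), but not without control mouse 1 (adjusted p = 0.0566), cKO-labelled mouse 1 (0.119) or cKO-labelled mouse 2 (0.111). The potassium channel *Kcnq1*, which recycles potassium during secretion, had 446 and 446 normalized counts against 337 and 323. It fell by 0.43 (adjusted p = 0.0256) as deposited and was 0.44 higher after the correction (adjusted p = 0.0346), so its direction rests on that step. Without any 1 of the 4 mice its adjusted p lay between 0.0721 and 0.1004. The colonic proton-potassium pump *Atp12a* did not pass (0.32, adjusted p = 0.591) except without control mouse 2 (1.11, adjusted p = 0.0138), and was -0.46 without control mouse 1.

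Chloride secretion is switched on by cyclic nucleotides. Of 19 tested receptors, messengers and kinases that regulate it, 5 rose and 2 fell (6 and 1 after the correction). *Gucy2c*, the receptor that makes cyclic GMP and leads to the opening of CFTR, rose from 2274 and 2553 normalized counts to 3461 and 3967 (log2 fold change 0.62, SE 0.11, adjusted p = 0.00720), with the same 0.62 after the correction. Its adjusted p was 0.0524 without control mouse 1 and 0.0596 without cKO-labelled mouse 2. Its ligand guanylin, *Guca2a*, had 2164 and 3096 against 3199 and 5953 (0.75, adjusted p = 0.0984) and did not pass. It passed after the correction (1.49, adjusted p = 0.0197), under epithelium marker scaling (0.88, adjusted p = 0.0186) and with DESeq2 (0.80, adjusted p = 0.0216). With a mouse left out it was 1.201 without cKO-labelled mouse 1 (adjusted p = 0.0475) but 0.31 without cKO-labelled mouse 2 (0.409) and 0.50 without control mouse 1 (0.406). Of the phosphodiesterases that break down cyclic nucleotides, *Pde3a* rose by 1.35 (adjusted p = 5.33e-04; 0.58 after the correction, adjusted p = 0.00811) and *Pde5a* by 0.77 (adjusted p = 0.00442), the latter lost after the correction. Of the kinases that control *Slc12a2*, *Wnk1* was at 0.01 (adjusted p = 0.890), and *Wnk4* fell by 1.29 (adjusted p = 0.00281), lost after the correction.

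Sulfate that *Slc26a2* brings in is used to sulfate mucins and proteoglycans. Of 9 tested genes of sulfate activation and sulfation, 3 rose and 2 fell (5 and 0 after the correction). *Papss2* and *Papss1*, which make the active sulfate donor, rose by 1.03 and 0.62 on the log2 scale (adjusted p = 0.00249 and 0.0194), and *Slc35b3*, which carries it into the Golgi, by 1.59 (adjusted p = 5.33e-04). These 3 genes passed after the correction as well, with *Papss2* at 0.57, *Papss1* at 0.58 and *Slc35b3* at 0.76. *Papss1* lost its call without control mouse 1 (adjusted p = 0.0661), cKO-labelled mouse 1 (0.0872) or cKO-labelled mouse 2 (0.129), under library totals (0.0614) and in limma without a trend (0.0678), whereas *Papss2* and *Slc35b3* passed under 18 of 18 settings. The sulfotransferases *Tpst2* and *Chst4* fell (log2 fold changes -1.79 and -1.24, adjusted p = 0.00249 and 0.00965), both lost after it, and *Chst4* also without control mouse 1 (adjusted p = 0.0777) or control mouse 2 (0.0784).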

How the data were processed

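Colonic epithelial RNA of 2 control and 2 cKO-labelled mice was sequenced. Reads were aligned by the authors with STAR (GRCm38) and scaled with DESeq2, so each deposited value is a signal, a gene's count over its library's size factor. The counter, annotation release and use of strand were not given in the sources used here. The deposited fold changes and p-values were not used. All values (100%, within 0.02 reads) were whole reads, so counts were recovered. Reads were not counted by molecule.

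Values were taken to log2(value + 1), which understates changes of low genes, and genes with a mean of 10 or more (13983) were tested with limma 3.58.1 (trend, two-sided, Benjamini-Hochberg adjustment, threshold 0.05, R 4.3.3) without covariates. Tables were matched to GENCODE gene models of GRCm38 (16003 of 16015 genes). Each library was also corrected by loess (span 0.3) for GC content and length. Other alternatives were pseudocounts of 0.5 and 5, other filters, thresholds and scalings, edgeR 4.0.16 and DESeq2 1.42.0 on recovered counts, a mouse-number block and leaving out each mouse. The steps were also run on simulated counts with the same setting of spread for all genes and both groups. The groups here differed in spread, so no error rate is taken from that run.

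From each list were named up to 3 genes of highest mean and up to 3 of largest change (mean of at least 100, called, groups apart), and some of these are not reported here. The 10 genes and all lists were chosen with earlier results of these data known.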

Additional observations from a re-analysis of the deposited data

How the results depend on the processing

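The number of the 10 genes that rose was 2 to 4 under every alternative, and the number that fell was 1 except as follows: 2 with a replicate block, 2 with the block plus the GC content and length correction, and 0 to 2 with a mouse left out. The mouse numbers do not pair the libraries by design, and the deviations of same-numbered libraries correlated at -0.09 across 13983 genes. Under the block *Slc9a3* (adjusted p = 0.01001, and 0.0322 with the correction) and *Slc26a2* (0.0141) also passed. *Slc26a2* passed too under epithelium marker scaling (0.00901) and without control mouse 2 (0.0180). Related genes that fell numbered 8 after the correction, 8 with block and correction, 9 at an adjusted p under 0.01 and 10 to 13 with a mouse left out. Over all genes, 2570 were higher and 2458 lower after the correction, 2177 and 2077 with block and correction, 2654 to 3154 and 2205 to 2852 with a mouse left out, and 2136 lower at 0.01. Scaling by library totals moved the median of all genes from -0.04 to -0.26 and the split from 4059 higher and 3871 lower to 3091 and 4885, with 3 and 1 of the 10 genes.

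Among the 10 genes and the related transport genes named above, log2 fold changes that changed sign were, after the correction (with or without the block), *Slc9a2* 0.20, *Slc9a3r1* 0.12, *Car9* 0.38, *Car13* -0.25, *Kcnq1* 0.44 and *Wnk1* -0.0931. Under library totals *Aqp8* was -0.11 and *Wnk1* -0.21, and under epithelium marker scaling *Car9* was 0.0107 and *Car12* 0.0385. *Aqp8* was -0.12 with edgeR and -0.10 with DESeq2, and *Wnk1* -0.0014 with edgeR. With a mouse left out, the ranges that crossed 0 were *Slc9a2* -0.72 to 0.30, *Slc9a3* -1.29 to 0.14, *Car1* -0.52 to 0.10, *Aqp8* -0.75 to 0.99, *Car9* -0.43 to 0.20, *Car12* -0.35 to 0.17, *Atp12a* -0.46 to 1.11 and *Wnk1* -0.0108 to 0.0402.

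The ratio of the highest to the lowest of the 10 genes per kilobase was 76.5 with all exons, 71.3 with coding length and 66.0 with the longest transcript in the control libraries, and 43.4, 24.2 and 32.6 in the cKO-labelled libraries. The log2 ratio of *Car1* to *Car2* differed by 0.09 as deposited and -0.28 after the correction. Of these changes, the cause was not tested. With 2 mice per group no outlier test was possible, and the standard errors of *Slc9a3* and *Aqp8*, 0.57 and 0.56, were the largest of the 10 genes despite at least 1079 normalized counts in each library.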

Other observations

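The marker lists are given with their called genes, named after the values were seen, as deposited and once GC content and gene length were corrected for. Of 11 surface colonocyte markers, *Krt20* and *Tmigd1* rose (log2 fold changes 0.68 and 1.41, adjusted p = 0.0198 and 0.0465 from limma), while *Phgr1*, *Cdhr5* and *Ceacam20* fell (-4.64, -1.38 and -0.52, adjusted p = 5.37e-04, 0.00451 and 0.0216). After the correction *Krt20* and *Phgr1* kept their calls (0.65 and -3.52, adjusted p = 0.0338 and 0.00366), and *Tmigd1*, *Cdhr5* and *Ceacam20* lost theirs (adjusted p = 0.284, 0.0891 and 0.0690).

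Of 12 markers of crypt base and cycling cells, *Lgr5*, *Smoc2*, *Top2a* and *Ccnb1* rose (2.79, 1.97, 0.92 and 0.87, adjusted p = 0.00814, 0.00191, 0.00189 and 0.00129), while *Ascl2* and *Mcm2* fell (-1.91 and -0.73, adjusted p = 0.0331 and 0.00377). After the correction *Lgr5* and *Smoc2* were still higher (2.17 and 1.77, adjusted p = 0.0298 and 0.00677) and *Mcm2* still lower (-0.55, adjusted p = 0.0137), *Top2a*, *Ccnb1* and *Ascl2* lost their calls (adjusted p = 0.297, 0.1001 and 0.424), and *Mki67*, at 0.0090 as deposited, was called lower (-0.41, adjusted p = 0.0451). Of 4 tested posterior Hox genes, *Hoxd13* rose (2.15, adjusted p = 0.0116) and *Hoxa11* fell (-1.15, adjusted p = 0.0406), whereas after the correction *Hoxd13* and *Hoxa13* were higher (1.88 and 0.80, adjusted p = 0.0332 and 0.0288) and *Hoxa11* did not pass (adjusted p = 0.172).

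Of 6 tested markers of enteroendocrine and tuft cells 5 fell, and 5 were lower after the correction. Their summed levels were 6155 and 7956 normalized counts in the control libraries against 726 and 907 in the cKO-labelled libraries, and the tuft cell factor *Pou2f3* went from 12 and 17 reads to 0 in both cKO-labelled libraries.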
